A study of Mus musculus with 18 samples.

Results

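Heat shock proteins (HSPs) and DnaJ proteins are the molecular chaperones that fold newly made proteins, refold damaged ones and pass the rest on for degradation. HSP70 proteins bind and release unfolded stretches in a cycle driven by ATP, DnaJ proteins (also called HSP40) deliver the client and start ATP hydrolysis, and HSP90, HSP60 with HSP10, and the small HSPs each serve other clients or other stages. Each compartment has its own set: Hspa9 (mortalin) with Hspd1 and Hspe1 in the mitochondrial matrix, Hspa5 (BiP) with Hsp90b1 (GRP94) in the endoplasmic reticulum (ER), and the heat-inducible Hspa1a, Hspa1b, Dnajb1 and Hsph1 in the cytosol. Cardiac muscle is known for a large content of small HSPs, which associate with sarcomeres and the cytoskeleton.

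The genes described here were chosen by name: protein-coding genes whose symbol starts as an HSP or DnaJ gene, leaving out Hspg2 and Hspbap1, with a mean of at least 10 counts over the libraries. The deposited counts cover 55450 genes. Of these, 73 had such a name, and 64 of them reached the minimum, 27 HSP genes and 37 DnaJ genes. The other 9 (Dnajb13, Dnajb3, Dnajb7, Dnajb8, Dnajc22, Dnajc5b, Dnajc5g, Dnajc6 and Hspb9) stayed below it. The 27 HSP genes include Hspb11 and Hspbp1, which match by name but were placed in none of the HSP families. All 64 also passed the filter on low counts used for testing. Together they held 1.175% of all counts.

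The hearts came from male mice of the FVB/N strain, either wild type (WT) or their littermates with Gαq overexpressed in the heart alone, a model of dilated cardiomyopathy, and RNA of the whole left ventricle was sequenced. Both genotypes ate control diet (CD) or the same chow with ertugliflozin (ERTU), an inhibitor of the renal glucose transporter SGLT2, at 0.5 mg per g of chow for 16 weeks, from 4 to 20 weeks of age. On CD there were 4 libraries of WT and 5 of Gαq, and on ERTU 5 of WT and 4 of Gαq, 18 in all, with total counts of 15383566 to 20908363. Libraries are named by group and by the number of their column, which runs over the whole series and pairs nothing. The labels do not name an animal for each library, so the p-values measure the spread between these libraries. Gnaq, the gene that encodes Gαq, stood at 45.5 to 229.7 CPM (counts scaled to a common library size) in the 9 WT libraries and at 1641 to 11672 CPM in the 9 Gαq libraries, so the genotypes did not overlap. Within Gαq, it averaged 7473 ± 3818 CPM on CD (n = 5) and 3216 ± 1371 CPM on ERTU (n = 4), with overlapping libraries.

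The label of heart muscle was checked with 10 cardiomyocyte markers such as Myh6, Tnnt2 and Ttn, all detected, whose summed level was 74509.6 to 113071 CPM in WT and 76470.4 to 104676 CPM in Gαq libraries. The fibroblast list summed to 1658 to 3458 CPM in WT and 3111 to 4807 CPM in Gαq. In the genotype test described below, 6 of 10 of its markers were called higher. Of all genes tested, 9.72% were called higher and 9.92% lower. The endothelial list summed to 1665 to 2081 CPM in WT and 1422 to 1725 CPM in Gαq, with 3 of 10 lower. In whole tissue, fewer cells of a type and less RNA per cell cannot be told apart. The atrial list, which includes the stress-responsive Nppa, summed to 231 to 973 CPM in WT and 10678 to 21373 CPM in Gαq, with 2 of 7 tested genes higher. The mean log2 CPM of its genes Myl7, Myl4, Sln and Bmp10 leaves out Nppa. It ran from -1.32 in WT ERTU library 12 to 4.95 in Gαq CD library 8, with overlapping genotypes. It varied widely within each group and served as a covariate in an alternative fit. Myl7 averaged 25.5 CPM in WT CD, 22.3 in WT ERTU, 33.9 in Gαq CD and 41.0 in Gαq ERTU.

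Short sequences near the gene starts are shown first because the members are often grouped by the elements they carry. The heat shock element, the binding site of heat shock factors, is built of inverted GAA units, and the ER stress element is bound by factors of the unfolded protein response. Promoter windows of 300 bases (250 before to 50 after the start, RefSeq, GRCm38.p6) were available for 52 of the 64 members. The letters GAANNTTCNNGAA, searched on both strands, were found in the windows of 4 members, or 7.69%, against 0.662% of 27025 genes. The shorter GAANNTTC, which reads the same on both strands and lies inside the longer motif, was found in 13 members, or 25%, against 9.04% of genes. The ER stress element (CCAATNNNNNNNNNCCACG) was found in 3 members, or 5.77%, against 0.137% of genes. Capitals in the sequences below mark the matched letters, and each is printed 5′ to 3′ on the strand of its gene.
Hspd1: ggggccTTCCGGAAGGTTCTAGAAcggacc
Hsph1: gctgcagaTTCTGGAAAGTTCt
Dnajb6: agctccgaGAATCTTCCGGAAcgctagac
Hspa1a: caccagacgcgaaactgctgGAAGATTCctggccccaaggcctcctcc
Hspb3: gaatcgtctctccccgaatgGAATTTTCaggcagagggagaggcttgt
Hspa5: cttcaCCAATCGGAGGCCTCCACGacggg
Hsp90b1: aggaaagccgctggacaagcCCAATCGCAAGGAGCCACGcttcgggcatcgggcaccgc
Dnajc3: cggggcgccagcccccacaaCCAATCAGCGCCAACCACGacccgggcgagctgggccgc
The Hspd1 stretch, chr1:55088053-55088082 on the minus strand, holds 2 overlapping matches and lies upstream of the RefSeq starts of both Hspd1 and Hspe1, which are transcribed away from each other, so Hspe1, the remaining member with that motif, has the same site read on the other strand. In the GENCODE annotation the longest extent of Hspd1 (chr1:55077835-55088243) covers this stretch and shares 112 exon bases with Hspe1 (chr1:55088132-55091307). The Hspa1a stretch (chr17:34972233-34972280, minus strand) is letter for letter the same as that of Hspa1b (chr17:34959315-34959362, minus strand). The Hsph1 stretch is at chr5:149636287-149636308 and the Hspb3 stretch at chr13:113663873-113663920, both on the minus strand, and the Dnajb6 stretch is at chr5:29735844-29735872 on the plus strand. Hspa5 (chr2:34772020-34772048, plus strand) and Dnajc3 (chr14:118937807-118937865, plus strand) have a single ER stress element in their windows. Hsp90b1 has a pair, of which the farther from its start is shown (chr10:86705618-86705676, minus strand). The matches begin 46 bases before the RefSeq start in Dnajb6, 65 in Hspa5, 104 in Hspa1a, 105 in Dnajc3, 212 in Hsp90b1 and 224 in Hspb3, while that of Hsph1 lies after its start. A match describes letters only, and binding was not measured.

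The chaperones were expressed at very different levels in the WT CD ventricle. Between genes, levels are compared as CPM per kb of exon, and the small HSP Hspb7 led at 1047 ± 87.7 (SD, n = 4). It was followed by Hsp90ab1, the constitutive cytosolic HSP90, at 620.4 ± 26.0, by the small HSPs Hspb6 at 332 ± 39.3 and Hspb8 at 295 ± 24.7, and by Hspa9 at 247 ± 22.9 CPM per kb. The libraries of Hspb6 and Hspb8 overlapped, as did those of Hspb8 and Hspa9, and those of Hspa5 and Dnaja2 next in order. Over all 18 libraries together, Hspb7 alone took 23.3% of the CPM of all members. The first 3 genes by this share, with Hsp90ab1 and Hspa9, took 47.1%. At the other end in WT CD were Hspa1b at 0.932 ± 0.202 and Hspa1a at 0.611 ± 0.245 CPM per kb, the inducible HSP70 pair. These genes are nearly identical in sequence and only uniquely aligned read pairs were counted, so their levels are uncertain. Hspa1a also varied most within groups, with a median coefficient of variation of 46.7%, ahead of Hspa1b at 38.0% and Dnajb1 at 26.0%, against a median of 11.4% over the members.

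The first comparison was Gαq against WT with diet in the model, which asks how the diseased genotype changed chaperone expression. Among mitochondrial chaperones Hspa9, Hspd1, Dnaja3, Dnajc28 and Dnajc30 fell, with log2 fold changes of -0.62 to -0.30. Outside the mitochondrion Hspb3, Hspa12a and Hsp90aa1 rose most. Of 12 heat-inducible genes 3 were called, beside 19.6% of all genes tested. In edgeR's quasi-likelihood test, with p-values adjusted by Benjamini-Hochberg over 16270 genes and a threshold of 0.05, 17 of 64 members (26.6%) were called, beside 19.6% of all genes tested. There were 8 higher in Gαq, beside 9.72% of all genes, and 9 lower, beside 9.92%. The median log2 fold change of the members was -0.00 and that of all genes 0.00. Without Gαq CD library 8 the members had 7 higher and 10 lower, and without WT ERTU library 11 they had 8 higher and 8 lower. Of all genes, 2898 and 2962 were called in these fits, against 3196 with all libraries.

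**Figure D1:**
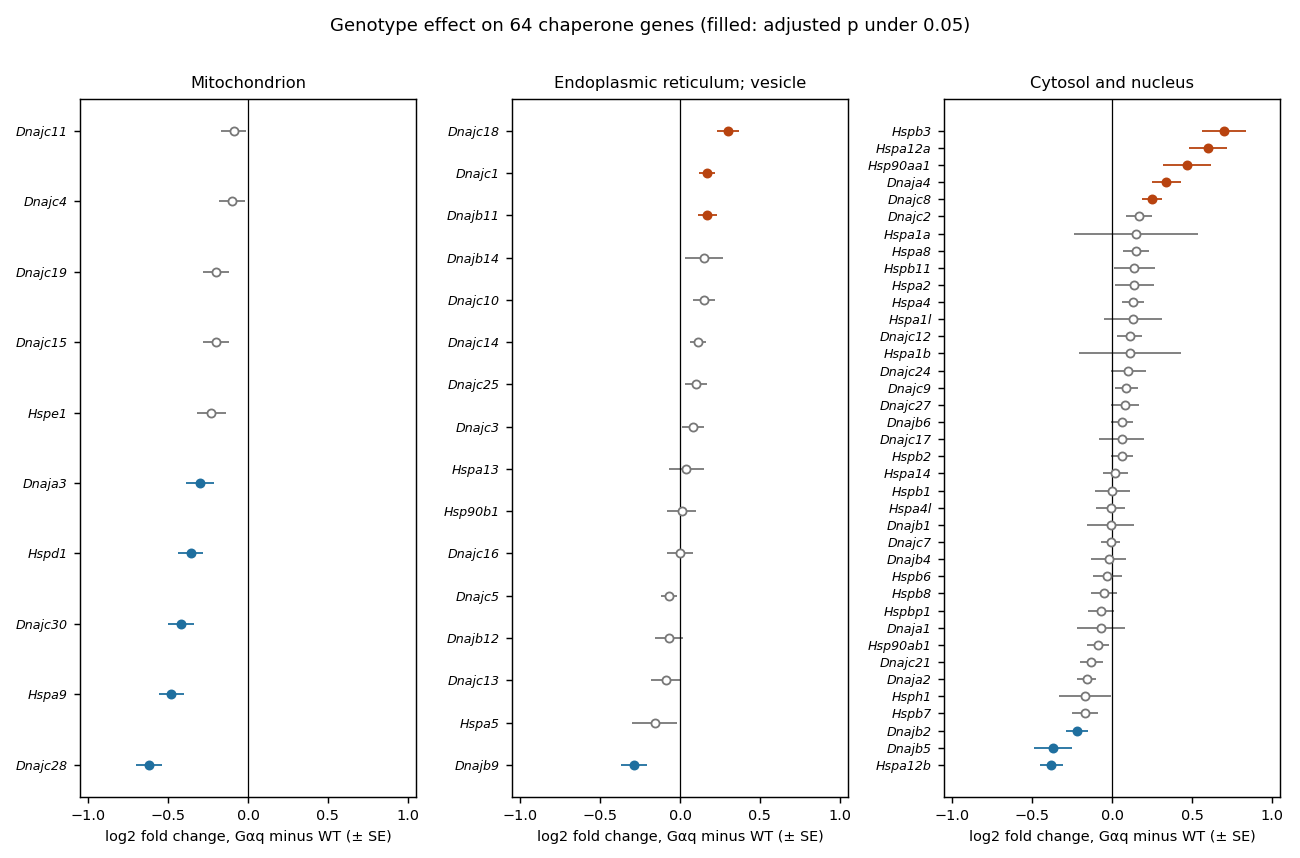
Log2 fold change of each of the 64 members by genotype (x axis, Gαq minus WT, diet in the model; bars are ± SE), listed by compartment with the vesicle genes Dnajc5 and Dnajc13 among the ER genes. Filled points have an adjusted p under 0.05, orange higher and blue lower in Gαq: the 10 mitochondrial genes lie below 0, from -0.62 to -0.09, while the 38 cytosolic and nuclear genes lie on both sides.

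By compartment the counts are read beside the 9.72% of all genes called higher and 9.92% called lower, and no test between compartments was run. Of 10 mitochondrial members 5 were lower in Gαq and none higher, and the values of all 10 were below 0, with a median log2 fold change of -0.26. The 14 ER members had 3 higher and 1 lower, with a median of 0.09. Of 38 in the cytosol and nucleus 5 were higher and 3 lower (median 0.06), and the 2 vesicle genes, Dnajc5 and Dnajc13, were at -0.07 and -0.09 without a call. For comparison, 8032 of all 16270 genes had a value below 0.

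Hspa9, the mitochondrial HSP70 that pulls imported proteins into the matrix and folds them, is the most abundant mitochondrial member. It stood at 1141, 1158, 998 and 964 CPM in WT CD, at 1342, 1180.5, 986, 1001 and 1172 in WT ERTU, at 901, 739.6, 740, 828 and 718 in Gαq CD, and at 809.6, 886, 748 and 729 in Gαq ERTU. Every Gαq library was below every WT library. The log2 fold change was -0.48 ± 0.08 (SE; 1.39-fold lower; adjusted p = 0.000105), and 3 members in all separated the genotypes completely, all of them lower (1.83% of all genes did so lower and 1.73% higher).

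The other 2 were DnaJ genes assigned to the mitochondrion. Dnajc28 stood at 76.8, 75.6, 59.2 and 62.5 CPM in WT CD, at 84.1, 84.0, 70.6, 73.6 and 75.6 in WT ERTU, at 52.3, 37.2, 44.0, 38.7 and 51.0 in Gαq CD, and at 53.6, 52.0, 49.1 and 47.2 in Gαq ERTU. It had the largest fall of the 64 members, -0.62 ± 0.08 on the log2 scale (1.54-fold lower; adjusted p = 6.04e-06). Dnajc30, linked to the repair of complex I of the respiratory chain, stood at 32.7, 30.1, 33.0 and 33.1 CPM in WT CD, at 40.1, 33.3, 37.4, 35.2 and 32.8 in WT ERTU, at 29.1, 25.6, 20.0, 29.0 and 26.6 in Gαq CD, and at 27.6, 20.7, 25.4 and 25.8 in Gαq ERTU. Its log2 fold change was -0.42 ± 0.08 (adjusted p = 0.000642), and the highest Gαq library lay just under the lowest WT library. Exons of Bud23 on the opposite strand cover 26.2% of its exon length, and the study's methods state that pairs on the same strand were counted, without saying whether the kit marks strand. Bud23 itself averaged 13.7 ± 0.953 CPM in WT CD (n = 4) and 12.6 ± 0.817 in Gαq CD (n = 5).

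Hspd1 (HSP60) and its lid Hspe1 (HSP10) form the barrel in which matrix proteins fold, and they share the stretch shown above. Hspd1 stood at 288, 299, 281 and 231 CPM in WT CD, at 306, 328, 291, 247 and 329.7 in WT ERTU, at 245, 236, 259, 222 and 204 in Gαq CD, and at 212, 235, 213 and 206 in Gαq ERTU. The genotypes overlapped only through WT CD library 5 and WT ERTU library 14, and the log2 fold change was -0.36 ± 0.08 (1.28-fold lower; adjusted p = 0.00174). Hspe1 stood at 66.7, 62.0, 71.6 and 49.5 CPM in WT CD, at 74.4, 59.2, 69.0, 66.4 and 63.7 in WT ERTU, at 51.0, 57.3, 69.7, 45.4 and 58.4 in Gαq CD, and at 55.3, 43.5, 50.7 and 65.1 in Gαq ERTU. Its value was -0.23 ± 0.09 (adjusted p = 0.0918), in the same direction but not called. The annotation names 5 pseudogenes for Hspd1 and 6 for Hspe1, which could take reads from either gene.

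Dnaja3, the DnaJ partner of Hspa9, averaged 164 ± 17 CPM in WT CD (n = 4), 177 ± 26.2 in WT ERTU (n = 5), 143 ± 17.8 in Gαq CD (n = 5) and 134 ± 19.8 in Gαq ERTU (n = 4). Its log2 fold change was -0.30 ± 0.09 (adjusted p = 0.0197), with overlapping libraries. Of the mitochondrial members left, Dnajc15 and Dnajc19, both tied to the import motor, had values of -0.20 and -0.20 (adjusted p = 0.0709 and 0.0896), Dnajc4 -0.10 and Dnajc11, which is part of the complex that shapes the inner membrane, -0.09.

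**Figure D2:**
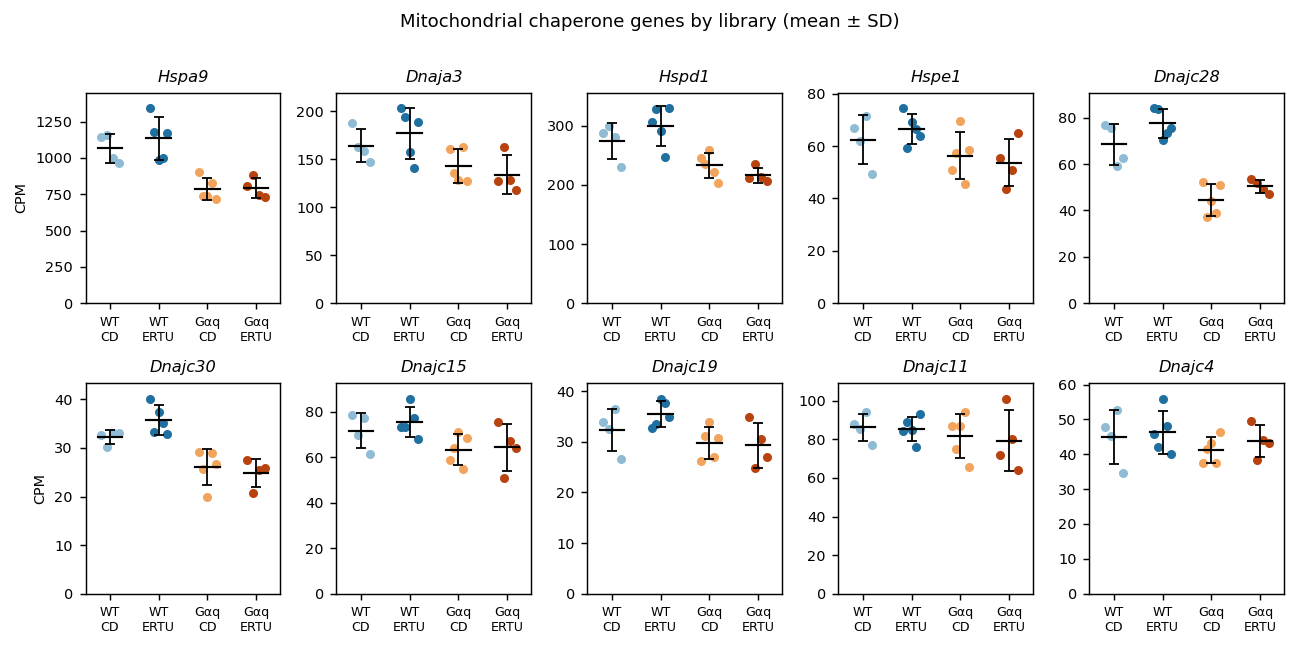
CPM (y axis, from 0) of the 10 mitochondrial members in each library of the 4 groups, with the mean and SD. For Hspa9, Dnajc28 and Dnajc30 every Gαq library lies below every WT library, and for the other 7 genes the genotypes overlap.

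Summed over the 10 mitochondrial members, expression was 1903 ± 164 CPM in WT CD, 2036 ± 195 in WT ERTU, 1504 ± 97.2 in Gαq CD and 1489 ± 99.3 in Gαq ERTU. Hspa9 alone made up a large part of these sums, at 1065 CPM in WT CD and 785 in Gαq CD. The summed level of the cytosolic and nuclear members was 8450.4 ± 541 CPM in WT CD and 8078 ± 389.8 in Gαq CD, so there the group difference was within the SD of either group. Hspb7 (2898 CPM in WT CD) and Hsp90ab1 (1861 CPM in WT CD) weighed most in that sum. The fibroblast list and the atrial list, which holds Nppa, had larger sums in Gαq libraries, as given above. The mean of Myl7, Myl4, Sln and Bmp10 overlapped between genotypes. The ranges of the cardiomyocyte sums overlapped, with 1 of 10 of those markers called higher (9.72% of all genes) and 3 lower (9.92%). The part of cell types in the result was not tested. With the atrial level as a covariate Hspa9 was at -0.44 and Dnajc28 at -0.59, both still called.

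Of 8 mitochondrial proteases and unfoldases, 6 were lower in Gαq and none higher, beside 9.92% of all genes lower, with a median of -0.30. Lonp1, the main matrix protease, was at -0.34 ± 0.07 (adjusted p = 0.00104), Htra2, a protease of the intermembrane space, at -0.32, and Clpp and its unfoldase Clpx at -0.28 and -0.49. The nucleotide exchange factor Grpel1, which resets Hspa9, was 1.26-fold lower (log2 fold change -0.34 ± 0.07, adjusted p = 0.00112), and Trap1, the mitochondrial member of the HSP90 family, was at -0.22 (adjusted p = 0.0243).

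Outside the mitochondrion, the largest rise was that of Hspb3, a small HSP of heart and skeletal muscle. It stood at 6.86, 7.80, 9.73 and 6.03 CPM in WT CD, at 5.64, 8.75, 9.60, 6.66 and 7.34 in WT ERTU, at 13.2, 12.9, 16.9, 17.8 and 10.7 in Gαq CD, and at 9.99, 13.9, 10.7 and 8.41 in Gαq ERTU. All Gαq CD libraries exceeded all WT libraries, while Gαq ERTU library 20 was inside the WT range. The log2 fold change was 0.70 ± 0.14 (1.63-fold higher; adjusted p = 0.000956).

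Hspb3 was the only 1 of 6 small HSPs to be called (16.7%, beside 19.6% of all genes). The abundant ones had values close to 0: Hspb6 was at -0.03, Hspb8 at -0.05, Hspb1 (HSP27) at -0.00 and Hspb2 at 0.06, with 95% intervals of -0.24 to 0.23 for Hspb1. Hspb7, the most abundant of all members, was at -0.17 (adjusted p = 0.129). Cryab, the small HSP αB-crystallin, which the name rule leaves out, was at -0.22 (adjusted p = 0.0999). It overlaps Hspb2 head to head, and its exons cover 30.2% of the exon length of Hspb2.

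Hspa12a and Hspa12b are distant relatives of HSP70 and moved in opposite directions. Hspa12a stood at 18.1, 19.3, 22.0 and 17.3 CPM in WT CD, at 11.4, 15.4, 12.6, 14.7 and 18.4 in WT ERTU, at 24.0, 30.7, 27.6, 39.6 and 19.4 in Gαq CD, and at 22.5, 29.1, 20.4 and 18.7 in Gαq ERTU. It was 1.52-fold higher in Gαq (log2 fold change 0.60 ± 0.12; adjusted p = 0.00136), with overlap through Gαq CD library 10 and Gαq ERTU libraries 18 and 20. Hspa12b, known from endothelial cells, stood at 92.3, 78.9, 76.1 and 89.8 CPM in WT CD, at 96.8, 86.5, 94.6, 82.2 and 84.9 in WT ERTU, at 64.2, 56.7, 56.1, 61.3 and 75.5 in Gαq CD, and at 76.2, 65.2, 68.0 and 74.5 in Gαq ERTU. It was 1.30-fold lower (-0.38 ± 0.07; adjusted p = 0.000368), and the genotypes touched at 76.1 CPM in WT and 76.2 CPM in Gαq. The endothelial markers were lower in the same libraries (9 of 10 below 0, median -0.23), and their part in the result was not tested.

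Hsp90aa1, the inducible cytosolic HSP90, rose while its constitutive relative had no call. It stood at 79.8, 89.6, 121 and 80.3 CPM in WT CD, at 96.0, 83.9, 89.1, 119 and 120.4 in WT ERTU, at 129, 161, 228, 120.1 and 104 in Gαq CD, and at 101, 158, 117 and 114 in Gαq ERTU. The log2 fold change was 0.47 ± 0.15 (adjusted p = 0.0245) with overlapping libraries, and the call was lost (adjusted p up to 0.0589) without any 1 of WT CD libraries 1, 2 or 5 or Gαq ERTU library 17, and with the atrial level as a covariate. Hsp90ab1 was at -0.09 (adjusted p = 0.438). Per kb of exon, the ratio of Hsp90aa1 to Hsp90ab1 was 0.0379 ± 0.00729 in WT CD, 0.0404 ± 0.0117 in WT ERTU, 0.0662 ± 0.023 in Gαq CD and 0.0493 ± 0.00755 in Gαq ERTU.

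Among the DnaJ genes of the cytosol and nucleus, Dnaja4 was higher in Gαq (0.34 ± 0.09, adjusted p = 0.0105), as was Dnajc8, which is tied to pre-mRNA splicing (0.25 ± 0.06, adjusted p = 0.00615). Dnaja4 averaged 170 ± 17.4 CPM in WT CD, 163 ± 13.4 in WT ERTU, 232 ± 19.1 in Gαq CD and 190.4 ± 46.6 in Gαq ERTU. Wdr61, whose exons on the opposite strand cover 44.1% of its exon length, averaged 25.8 ± 1.49 CPM in WT CD and 26.4 ± 2.68 in Gαq CD. Dnajb5 was lower (-0.37 ± 0.12, adjusted p = 0.0296), a call kept in 11 of 18 fits that left out 1 library, and so was Dnajb2, a neuronal and muscle DnaJ that hands clients to the proteasome (-0.22, adjusted p = 0.0234).

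In the ER, small rises were called for Dnajc18 (0.30 ± 0.07, adjusted p = 0.00328), for Dnajc1 (0.17 ± 0.05, adjusted p = 0.0245) and for Dnajb11, a co-factor of Hspa5 (0.17 ± 0.06, adjusted p = 0.0402). The call for Dnajb11 held in 7 of 18 fits that left out 1 library. Dnajb9, an ER DnaJ induced by the unfolded protein response, went the other way: it averaged 60.4 ± 3.40 CPM in WT CD and 62.3 ± 11.6 in WT ERTU but 49.6 ± 5.22 in Gαq CD and 50.9 ± 2.41 in Gαq ERTU (log2 fold change -0.29, adjusted p = 0.00946). The 3 members with an ER stress element in their windows were not called: Hspa5 was at -0.16 ± 0.14, Hsp90b1 at 0.01 ± 0.09 and Dnajc3 at 0.08 ± 0.07. Dnajc10, an ER reductase, was at 0.15 ± 0.07 (adjusted p = 0.155). Of 8 members listed for the unfolded protein response, 2 were higher and 1 lower, or 37.5% called beside 19.6% of all genes.

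**Figure D3:**
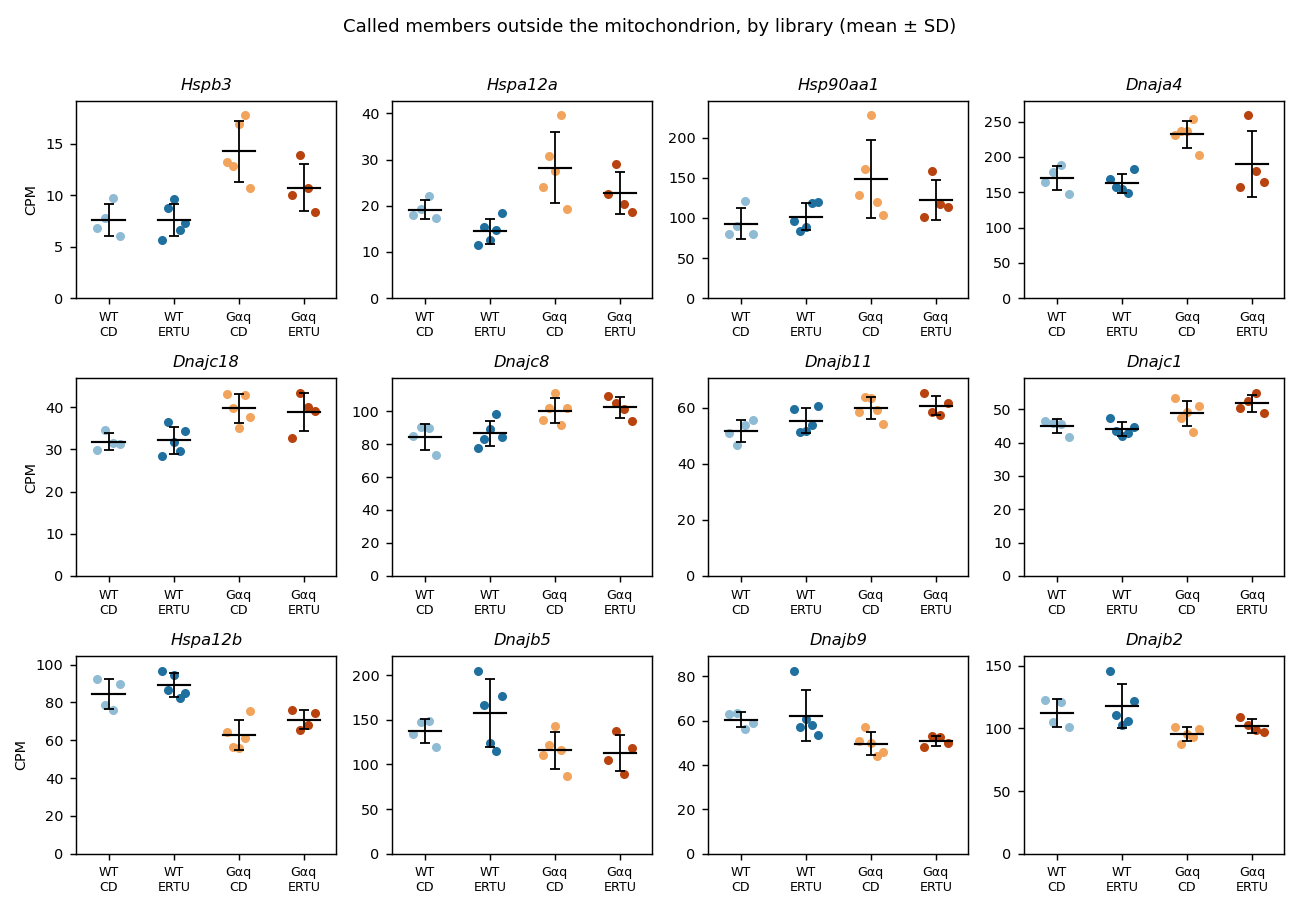
CPM (y axis, from 0) of the 12 members outside the mitochondrion that were called by genotype, in each library of the 4 groups, with the mean and SD; 8 are higher in Gαq (first 2 rows) and 4 lower (last row). The genotypes overlap in every panel.

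The heat-inducible list of 12 members had 2 higher (Hsp90aa1 and Dnaja4), beside 9.72% of all genes, and 1 lower (Hspd1), beside 9.92%. The list had a median of -0.00 on the log2 scale. It summed to 904 to 1244 CPM in WT and 946 to 1377 CPM in Gαq libraries. Its members Dnajb1 (-0.01 ± 0.15), the main DnaJ partner of inducible HSP70, Hsph1 (-0.17 ± 0.16), an exchange factor of HSP70, Dnaja1 (-0.07 ± 0.15) and Hspa4l (-0.01 ± 0.09) were not called. Without Gαq CD library 8 the median was -0.10, with 9 of 12 values below 0. Hspa1a stood at 1.15, 1.37, 2.78 and 1.95 CPM in WT CD, at 4.02, 0.948, 1.43, 2.52 and 2.19 in WT ERTU, at 1.41, 2.95, 7.87, 0.715 and 1.36 in Gαq CD, and at 1.46, 2.16, 1.13 and 1.88 in Gαq ERTU. Its lowest and highest values were both in Gαq CD. The log2 fold change by genotype was 0.15 with a 95% interval of -0.68 to 0.97, a span that includes changes in either direction.

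Gαq CD library 8 stood apart for this list. It was the highest of the 18 libraries for 5 of the 12 genes and among the 3 highest for 7, with Hspa1b at 8.10, Hsp90aa1 at 228 and Hspa8, the constitutive HSP70, at 196 CPM. WT ERTU library 11 was among the 3 highest for 8 genes, with Hspb1 at 161 CPM against 88.4 to 95.3 in the other WT ERTU libraries. Library 8 also had the highest atrial gene level and the highest fibroblast sum (4807 CPM), and the part of these in its values was not tested.

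**Figure D4:**
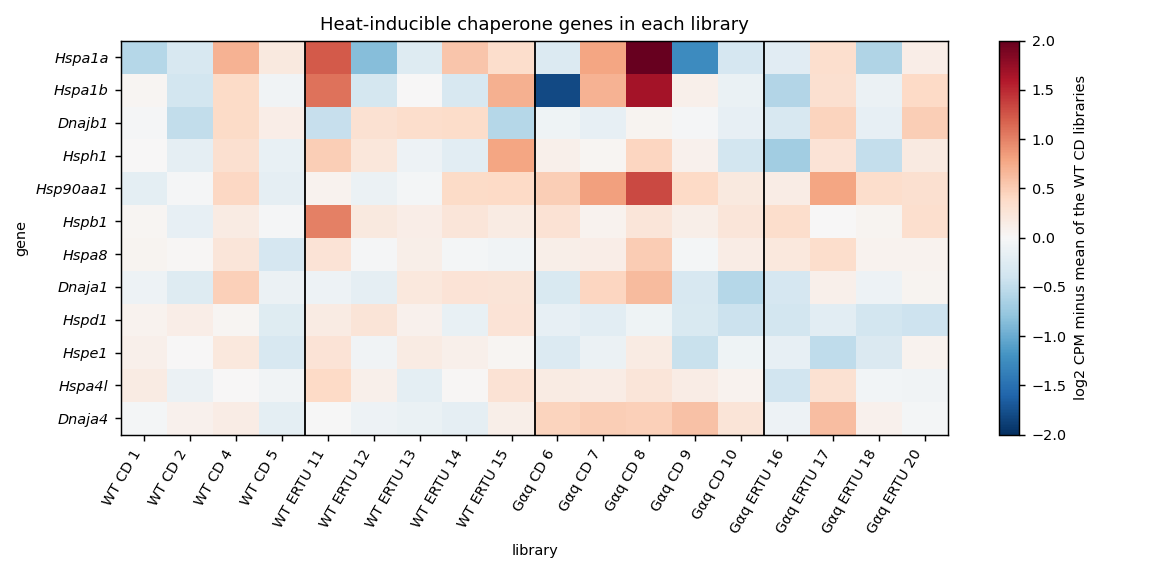
Log2 CPM of the 12 heat-inducible members (rows) in each of the 18 libraries (columns, split by group), as the difference from the mean of the WT CD libraries (red higher, blue lower). Gαq CD library 8 and WT ERTU library 11 are the reddest columns for Hspa1a and Hspa1b, while Hsp90aa1 and Dnaja4 lie above 0 in all 5 Gαq CD libraries.

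The genotype effect was then taken on each diet, as 2 contrasts between groups that share no library. Both came from 1 model of all 18 libraries with a shared estimate of spread, so the tests are not independent. On CD 6 members (9.38%) were called, beside 8.1% of all genes: Hspb3, Hsp90aa1 and Dnaja4 were higher (all genes called higher 4.0%) and Dnajc28, Hspa12b and Hspa9 lower (all genes 4.1%). On ERTU 6 members were called as well, beside 8.17% of all genes: Hspa12a was higher (all genes 3.93%), while Dnajc28, Dnajc30, Hspa9, Hspd1 and Hspa12b were lower (all genes 4.24%). Dnajc28, Hspa9 and Hspa12b were called on both diets. The call for Hspa12b on ERTU (adjusted p = 0.0423) held in 9 of 18 fits that left out 1 library (adjusted p up to 0.122), and was lost without a filter on low counts and with the atrial level as a covariate. Among the libraries of the contrast itself, leaving out any 1 of WT ERTU 11, 12, 13 and 15 or Gαq ERTU 17, 18 and 20 lost it. Without WT CD library 1 or without WT CD library 2 the count on CD was 3. All genes called on CD went from 1318 to 788 and 851 in those fits. Libraries did not overlap for 4 members higher on CD (4.7% of all genes) and 5 lower (4.6%), and for 2 higher on ERTU (5.4%) and 6 lower (5.49%).

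Hspb3 was at 0.91 ± 0.19 on CD (adjusted p = 0.00459) and at 0.50 ± 0.19 on ERTU (adjusted p = 0.118). Hsp90aa1 was at 0.68 ± 0.20 on CD (adjusted p = 0.0403) and at 0.27 ± 0.20 on ERTU (adjusted p = 0.473). On CD the call for Hsp90aa1 was lost without Gαq CD library 8 (adjusted p = 0.12) and without 5 other single libraries. Hspd1 was at -0.24 ± 0.10 on CD (adjusted p = 0.177) and at -0.47 ± 0.10 on ERTU (adjusted p = 0.00565), and Hspa9 at -0.44 and -0.52. None of these differences between the diets was itself called (adjusted p = 1.0 for the interaction of each).

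The 10 mitochondrial members were below 0 on both diets, against 36.0% of all genes tested, with medians of -0.19 on CD and -0.35 on ERTU. Leaving out each of the 18 libraries in turn kept all 10 below 0 on each diet, with medians of -0.25 to -0.13 on CD and -0.39 to -0.32 on ERTU. Leaving out a library of the other diet can hardly move these values, so only the fits without a library of the same diet check them. Over all 64 members the sign was the same on both diets for 42 (65.6%), beside 73.1% of all genes. For the heat-inducible list 9 of 12 values were above 0 on CD and 4 of 12 on ERTU. Without Gαq CD library 8 the first count was 5 of 12, and the median of the list on CD moved from 0.16 to -0.04.

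**Figure D5:**
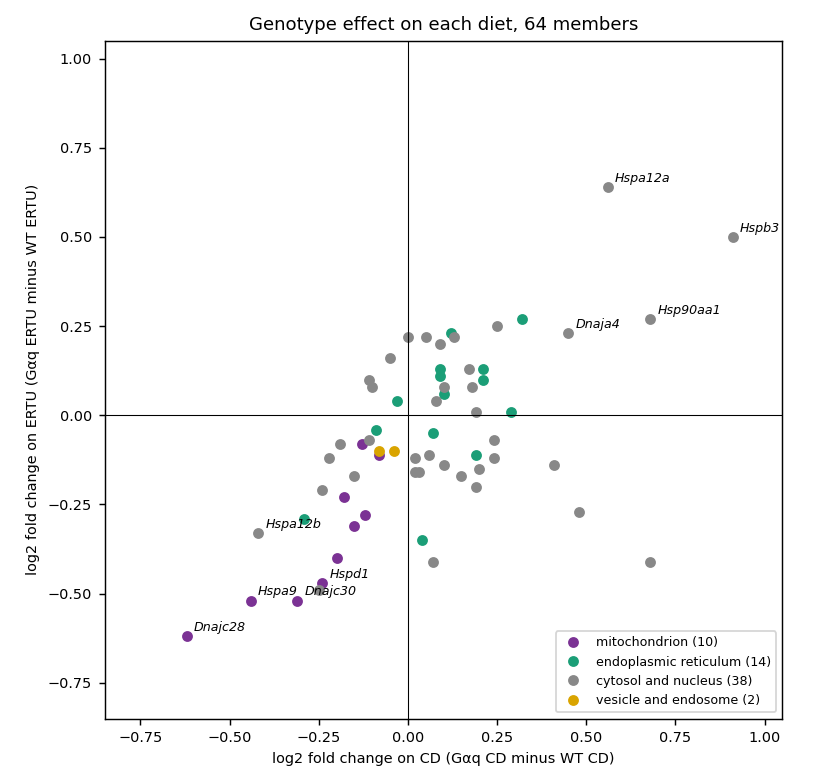
Log2 fold change by genotype on CD (x axis) against that on ERTU (y axis) for the 64 members, coloured by compartment; genes called on either diet are named. The 10 mitochondrial genes all lie below 0 on both axes, whereas other genes lie on both sides of each axis.

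The last question was whether ERTU changed the chaperones. No member was called for diet over both genotypes, in either genotype alone or for the interaction, by edgeR, DESeq2 or limma. Of all genes, edgeR called 0.0% for diet, in WT and for the interaction and 0.00615% in Gαq. At an unadjusted p under 0.05 in edgeR there were 4 members for diet (7.7% of all genes), 3 in WT (2.24%), 5 in Gαq (7.62%) and 1 for the interaction (1.92%). Libraries of the 2 diets overlapped for all 64 members in WT (0.756% of all genes did not overlap), and in Gαq 1 member, Dnajc25, was separated higher (0.744%) and 1, Dnajc24, lower (0.854%), both named after their values were seen and neither called. The values of the members ran from -0.36 to 0.20 for diet, and their median absolute value was 0.08.

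By diet Hspa12a had the smallest p. It averaged 18.1 CPM on ERTU and 24.2 on CD (-0.36 ± 0.12, unadjusted p = 0.0083 in edgeR, adjusted p = 0.639), next to Dnajc2 at 0.20 and Dnajc28 at 0.18. The Hspa12a means pool both genotypes, with 5 WT and 4 Gαq libraries on ERTU and 4 WT and 5 Gαq on CD. The log2 fold change allows for genotype. In WT the first was Hspb1 at 0.39 ± 0.15 (unadjusted p = 0.0177 in edgeR, adjusted p = 1.0), which had the high value in library 11, followed by Hspa14 at 0.23 and Hspa12a at -0.40. In Gαq hearts the first were Dnajc7, a co-chaperone of HSP70 and HSP90, at 0.23, Dnajc27 at -0.31 and Hspa13 at -0.35, all with an adjusted p of 0.653. The mean Gnaq level of the Gαq libraries was lower on ERTU, with overlapping values as given above, and its part in the values for ERTU in Gαq was not tested. For the interaction, the smallest p was that of Hspa14 (-0.36, 95% interval -0.64 to -0.08, adjusted p = 1.0).

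For ERTU in WT, 9 of the 10 mitochondrial members were above 0 (median 0.1), and for the interaction 9 were below 0, none called. Without WT CD library 5 these counts were 7 above 0 (median 0.05) and 6 below 0 (median -0.05). The mitochondrial members lay near 0 for ERTU in Gαq, with a median of -0.03 and values from -0.11 to 0.18. For Hspa9 the 95% interval of that effect was -0.22 to 0.24, and the genotype effect on CD was -0.44. For Dnajc28, with an ERTU effect in Gαq of 0.18, the interval was -0.05 to 0.41, and its genotype effect on CD was -0.62. The heat-inducible list had 11 of 12 values above 0 for ERTU in WT and 11 of 12 below 0 for ERTU in Gαq, none called. Without Gαq CD library 8 the second count was 5 of 12 and the median moved from -0.15 to 0.01. Without WT ERTU library 11 the first was 9 of 12. For comparison, ERTU in WT had 46 of all 64 members and 8385 of 16270 genes above 0. In Gαq 39 of 64 members and 8307 of 16270 genes were below 0.

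Of the partners and regulators of these chaperones, 72 of 76 listed genes were tested and 17 were called by genotype (23.6%, beside 19.6% of all genes), 3 higher and 14 lower. The heat shock factors tested, Hsf1, Hsf2 and Hsf4, had no call, with Hsf1 at -0.16 (adjusted p = 0.11). Of 16 HSP90 co-chaperones 1 was higher (Sugt1 at 0.24) and 4 lower, among them the immunophilin Fkbp4 at -0.56 ± 0.09 (1.47-fold lower; adjusted p = 7.9e-05) and Itgb1bp2 (melusin), a muscle protein, at -0.54 ± 0.08 (adjusted p = 3.1e-05). Bag3, the HSP70 co-factor that works with Hspb8 in muscle, was at -0.30 (adjusted p = 0.0437), and with Grpel1 it made 2 lower of 16 HSP70 partners. The ER folding enzymes had 2 higher (P4hb at 0.29 and Ppib at 0.29) and 2 lower of 14, among them Ero1lb at -0.41, and none of 14 subunits of the cytosolic chaperonin TRiC and of prefoldin was called, with Cct2 at -0.13, Cct8 at 0.11 and Pfdn1 at 0.25 (adjusted p = 0.0847). Stip1, which links HSP70 to HSP90, was at -0.05, and Hyou1, the large HSP70 relative of the ER, at -0.17, neither of them called. Sec63, a J-domain protein of the ER translocon, was at 0.16 (adjusted p = 0.0519).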

How the data were processed

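Poly(A) RNA libraries (NEBNext Ultra II RNA kit) were sequenced in pairs. Per the authors' methods and processing notes, reads were aligned to mm10 with STAR 2.6.0c and uniquely aligned pairs on the same strand were counted per Ensembl gene with featureCounts (Subread 1.6.2), and FastQC 0.11.7 was used. The authors deposited raw counts and a log2-like table from the variance-stabilizing transformation of DESeq2 (1.23.10 in the notes).

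Counts were tested with edgeR 4.0.16 (R 4.3.3): TMM factors, filterByExpr on the 4 groups (16270 genes; genes left out held 0.0906% of counts), glmQLFit and glmQLFTest, Benjamini-Hochberg adjustment over all genes and a threshold of 0.05. Genotype and diet came from a model with both terms, other contrasts from a model with 1 mean per group. The script was tested on simulated counts. CPM used TMM factors; intervals (95%) rest on the SE of the test. Symbols matched 99.4% of gene IDs through the GENCODE M21 annotation. DESeq2 1.42.0 on the counts and limma 3.58.1 on the deposited log2 values were alternatives, beside other factors and filters and leaving out each library. Compartments were assigned from general knowledge. Members, families, compartments, gene lists and tests were chosen with earlier results of these data known. Named genes are the called members, the members of 4 lists, the 3 smallest p per ERTU comparison, the 5 highest members, and per partner list the 3 smallest p plus Hsf1, Bag3, Stip1, Cryab and Hyou1; Clpx, Trap1, Dnaja2, Dnajc4, Dnajb6, Dnajc5, Dnajc13, Dnajc24 and Dnajc25 were added after their values were seen. Protein sequences were not analysed here.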

Additional observations from a re-analysis of the deposited data

Results flagged for a closer look

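In groups of 4 or 5 libraries, the gap between an extreme library and its nearest neighbour was compared with the range of the group (Dixon's ratio, at its 95% limit). Of 172 such tests over the named members 7 passed, and chance gives about 8.6. Of the 7, WT ERTU library 11 held 3. There Dnajb9 was at 82.6 CPM against 53.4 to 60.6 in the others (ratio 0.755), Hspb1 at 161 against 88.4 to 95.3 (0.904) and Hspb7 at 3544 against 2748 to 2864 (0.854). Gαq CD library 8 held 2, with Dnajc3 at 101 CPM against 65.1 to 74.8 (0.729) and Hspa8 at 196 against 134 to 152 (0.712). In WT CD, Dnajc2 was high in library 1 at 47.3 CPM against 37.1 to 38.8 (0.835), and Dnajc30 low in library 2 at 30.1 against 32.7 to 33.1 (0.852).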

How the results depend on the processing

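Leaving out each library in turn gave between 14 and 20 called members by genotype. On CD the genotype count ran from 3 to 8, on ERTU from 4 to 9, and that of partner genes from 13 to 18, with 0 members in each of the other 4 comparisons. Over the same fits, all genes called ran from 2812 to 3458 by genotype, from 788 to 1414 on CD and from 946 to 1696 on ERTU. The count of members on CD went from 6 to 3 without WT CD library 1 and without WT CD library 2. In those fits 788 and 851 of all genes were called on CD, against 1318 with all libraries. Under the other factors, filters, tools and samples tried, every count of called members and partner genes stayed within 1.5 times the reported one. By genotype the count of members was 18 with DESeq2, 16 with limma, 14 without a filter and 13 with the atrial level as a covariate, an alternative chosen after seeing the data. All genes called by genotype numbered 3534, 3215, 2947 and 2819 in these fits, against 3196 in the main fit. Median-of-ratios factors moved the median of all genes by at most 0.00592 on the log2 scale.

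Of 29 called values, 10 lost their call in at least 1 fit that left out a library: Dnajb11 kept its call in 7 of 18 such fits, Dnajb5 in 11, Hsp90aa1 in 14 and in 12 on CD, Dnaja4 on CD in 12, Hspa9 on CD in 16, Hspa12b on ERTU in 9, Hspa12a on ERTU in 14, and Dnajb2 and Dnajc1 in 17; the cause was not tested. A contrast on 1 diet compares libraries of that diet only. Leaving out a library of the other diet touches only its scaling, filter and shared spread, so the counts out of 18 overstate its stability. Dnaja4 on CD lost its call without any 1 of WT CD libraries 1, 2 or 5 or Gαq CD libraries 7, 8 or 9. Calls were also lost under other settings. Without a filter these were Dnajb11, Dnajb2, Dnajc1 and Hspa12b on ERTU. With the atrial level as a covariate they were Dnajb11, Dnajb2, Dnajb5, Hsp90aa1, Hspa12a on ERTU and Hspa12b on ERTU. Dnajb11 lost its call with limma, and Hsp90aa1 on CD in a fit of only the 2 groups compared. Dnajb11 kept its call in 3 of 6 such settings, Dnajb2 in 4 and Dnajc1 in 5. No called value changed sign. No paired analysis was possible because no column number occurs in more than 1 group. Depth was lowest for Hspa1a and Hspa1b, which averaged 40.9 and 57.2 counts per library.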
